A study of Mus musculus with 12 samples.

Results

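The genes described here are 10 members of the Toll-like receptor system of the mouse. They were found by symbol among the Ensembl identifiers of the count tables, of which there were 35697 for the sham and TBI libraries and 55637 for the libraries of the zileuton experiment. All 10 were listed in both tables, and all 10 passed the filter on low counts in both comparisons. The surface receptors were Tlr1, Tlr2 and Tlr4. The endosomal receptors were Tlr3, Tlr7, Tlr9 and Tlr13. The partners were Cd14, Unc93b1 and Myd88.

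Toll-like receptors are membrane proteins that sense molecules of microbes and of damaged tissue. Those at the cell surface bind mainly lipids and lipoproteins, whereas those in endosomes bind nucleic acids. After binding, most of them recruit the adaptor MyD88 to start NF-κB and MAP kinase signaling, whereas TLR3 uses the adaptor TRIF. In the brain these receptors are best known from microglia, the resident macrophages, and from myeloid cells that enter from the blood.

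The mice were adult male wild-type C57BL/6J animals. In controlled cortical impact (CCI), which models traumatic brain injury (TBI), a piston strikes the exposed cortex. Sham mice had the surgery without the impact. The sham and TBI groups (3 mice each) carry a date of 2018, and the TBI tissue was taken 7 days after injury around the contusion. A pair of groups of 3 mice carries a date of 2022. One was injured and is labelled only as TBI (TBI_7d below), and the other was injured and given zileuton, a 5-lipoxygenase inhibitor dissolved in corn oil, by intraperitoneal injection at 10 mg/kg per day. The study's text calls the injured control group vehicle-treated, which its labels do not state. Library names give 7 days for all zileuton mice, but the source labels of 2 of them give 8 and 9 days.

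RNA was sequenced from whole tissue pieces as read pairs. Library totals were 42929862 to 48684674 counts in the 2018 groups and 27845562 to 35453257 in the 2022 groups. No groups of different dates were tested against each other. Summed markers of astrocytes, neurons and oligodendrocytes each stood at 982 CPM (counts scaled to library size) or more in every library. Although all mice are labelled male, Xist, the RNA of the inactive X chromosome, stood at 18.5 to 23.5 CPM in all 6 libraries of 2018, beside Y-linked Ddx3y at 51.7 to 66.8 CPM. In the 2022 libraries Xist was at 0.0343 to 0.197 CPM. Sham (18.5 to 22.0 CPM) and TBI (21.2 to 23.5 CPM) had overlapping Xist levels, and its part in the results for the X-linked Tlr7 and Tlr13 was not tested.

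Promoter sequence from RefSeq on GRCm38.p6 was given for 6 of the 10 genes, in 7 windows. It is shown here because the genes rose together, and only for windows that hold a match to one of 4 motifs of factors active in myeloid or inflamed cells and that lie outside annotated exons at the match. Each motif was searched on both strands in the 250 bases before the start. The core site of PU.1, the factor that sets myeloid identity, was searched as GAGGAAGT and occurs in 2.44% of all 32817 promoters of that length. A pair of interferon regulatory factor (IRF) sites, searched as GAAA, any 2 bases and GAAA again, occurs in 2.97%. The AP-1 site TGANTCA occurs in 6.75%, and the NF-κB consensus in 7.25%. Capitals mark the matches, and each sequence is written 5′ to 3′ on the strand of its gene, without annotated exons. Tlr1 (chr5:64933564-64933808, minus strand) holds the PU.1 core, Tlr2 (chr3:83841768-83841858, minus strand) holds a pair of overlapping NF-κB matches, Tlr9 (chr9:106222348-106222597, plus strand) holds an AP-1 match, and Myd88 (chr9:119340042-119340268, minus strand) holds the IRF pair.
Tlr1: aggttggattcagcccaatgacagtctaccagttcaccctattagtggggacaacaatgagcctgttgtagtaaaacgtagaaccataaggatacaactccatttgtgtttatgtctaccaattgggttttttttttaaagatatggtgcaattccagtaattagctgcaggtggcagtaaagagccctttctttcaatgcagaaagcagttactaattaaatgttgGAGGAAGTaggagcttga
Tlr2: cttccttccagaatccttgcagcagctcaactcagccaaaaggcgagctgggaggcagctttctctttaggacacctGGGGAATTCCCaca
Tlr9: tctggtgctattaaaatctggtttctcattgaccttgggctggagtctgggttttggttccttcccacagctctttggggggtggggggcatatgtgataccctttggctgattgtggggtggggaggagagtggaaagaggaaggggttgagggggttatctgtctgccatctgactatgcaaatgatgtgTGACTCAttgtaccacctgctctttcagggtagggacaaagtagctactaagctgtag
Myd88: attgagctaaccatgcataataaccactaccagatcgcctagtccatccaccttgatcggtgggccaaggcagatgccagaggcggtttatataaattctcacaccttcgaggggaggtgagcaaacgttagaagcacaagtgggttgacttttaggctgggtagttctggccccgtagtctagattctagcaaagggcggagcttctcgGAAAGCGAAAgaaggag
The Tlr3 window held an NF-κB match in an annotated exon. The other Tlr1 window (chr5:64932700-64932949) and the Tlr13 window held none of the 4. For the Tlr1 window shown, the bases after the start were not found in an annotated transcript of the gene. Tlr4, Tlr7, Cd14 and Unc93b1 had no entry. A match describes letters only and was not tied to any value below.

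The comparison of TBI with sham tissue asked which genes of the system changed by 7 days after injury. All 10 rose. The lowest TBI library lay above the highest sham library for each of them, and each passed an adjusted p-value of 0.05 in edgeR's quasi-likelihood test with Benjamini-Hochberg adjustment over 19536 genes. Of all genes tested, 16.8% were called higher and 24.6% were higher with no overlap of the groups. All 10 rose at least 2-fold (8.73% of all genes) and 6 rose at least 4-fold (3.83%). The median log2 fold change was 2.70 over the 10 genes and 0.02 over all genes. As tissue was sequenced whole, more cells of a type and more RNA per cell cannot be told apart.

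**Figure D1:**
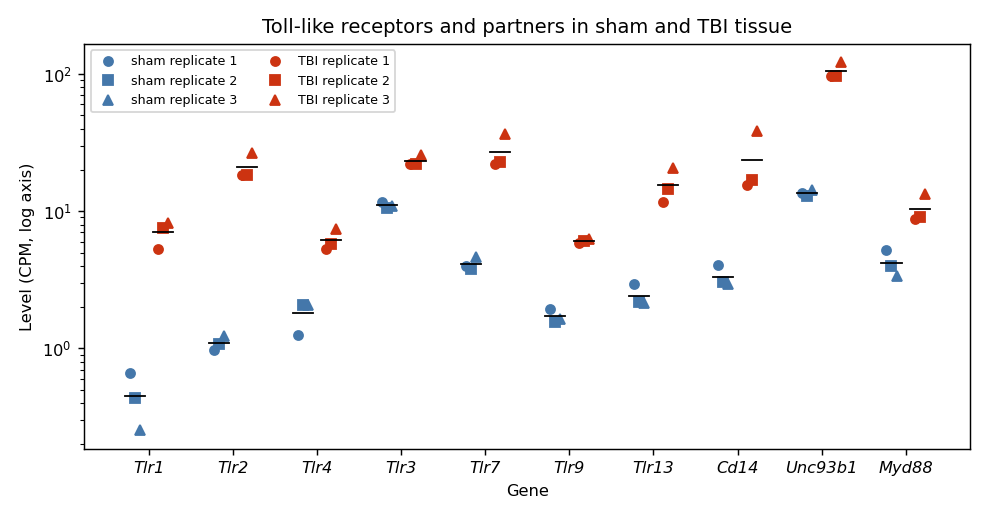
Level of each gene in CPM (log axis) in the 3 sham and 3 TBI libraries of 2018. Symbols are libraries and black lines are group means, and the groups do not overlap in any of the 10 genes.

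The surface receptors held both of the largest changes. Tlr2, which pairs with TLR1 or TLR6 to bind bacterial lipoproteins, had 44, 50 and 59 counts in the sham mice and 903, 895 and 1150 in the TBI mice. This was 1.10 ± 0.134 against 21.1 ± 4.81 CPM (SD, n = 3 each), a 19.2-fold rise (log2 fold change 4.26, standard error 0.206, adjusted p = 7.17e-06, edgeR). TBI replicate 3 was the highest of the injured mice, and the other two were nearly equal.

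Tlr1 had 30, 20 and 12 counts in the sham mice and 259, 367 and 354 in the TBI mice. It was the rarest of the 10 genes in sham tissue and rose 15.5-fold (95% interval 8.97 to 26.8, adjusted p = 7.92e-05, edgeR). Tlr1 lies beside its near copy Tlr6 on chromosome 5, so reads of the pair could have been divided between them in ways the counts do not show. Tlr4, the receptor for lipopolysaccharide, moved less than its surface partners, from 56, 96 and 99 to 259, 283 and 318 counts. Its rise was 3.41-fold (95% interval 2.29 to 5.07, adjusted p = 0.00115, edgeR). The interval of Tlr4 lay wholly below those of Tlr1 and Tlr2.

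Among the endosomal receptors, Tlr7 and Tlr13 moved most. Tlr7 senses single-stranded RNA, and Tlr13, which humans lack, senses bacterial ribosomal RNA. Tlr7 went from 180, 176 and 221 counts to 1092, 1120 and 1565, a 6.54-fold rise (log2 fold change 2.71, standard error 0.208, adjusted p = 3.94e-05, edgeR). Tlr13 went from 132, 101 and 102 counts to 571, 710 and 888, a 6.44-fold rise (2.69, standard error 0.240, adjusted p = 8.65e-05). In both genes TBI replicate 3 was the highest library.

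Tlr9, the sensor of unmethylated CpG DNA, had 87, 72 and 78 counts in the sham mice and 290, 296 and 268 in the TBI mice. Scaled for depth, its injured libraries were the closest together of the 10 genes relative to their mean, at 6.06 ± 0.164 CPM (SD, n = 3), and it rose 3.54-fold (adjusted p = 0.000151, edgeR). Tlr3, the sensor of double-stranded RNA, had 525, 486 and 523 counts in the sham mice and 1083, 1078 and 1105 in the TBI mice. At 2.10-fold (95% interval 1.78 to 2.49, adjusted p = 0.000152, edgeR) it rose least of the 10 genes, from the highest sham level per length of the 7 receptors. An antisense gene, Gm45542, overlaps Tlr3, and whether counting used the strand is not given in the sources used here.

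Of the partners, Unc93b1 had the smallest error relative to its change. It encodes the chaperone that carries the endosomal receptors out of the endoplasmic reticulum. Its counts were 612, 598 and 683 in the sham mice and 4726, 4712 and 5239 in the TBI mice, a 7.69-fold rise (95% interval 6.43 to 9.19, adjusted p = 2.86e-06, edgeR). Unc93b1 thus moved more than each of the 4 endosomal receptors described here, although its interval overlapped those of Tlr7 and Tlr13. Of the rarer receptors given below, Tlr8 rose more than Unc93b1, and the others that could be tested had smaller changes.

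Cd14, the co-receptor that hands lipopolysaccharide to the TLR4 complex, had 182, 140 and 140 counts in the sham mice and 758, 818 and 1656 in the TBI mice. It rose 7.05-fold (log2 fold change 2.82, standard error 0.355, adjusted p = 0.00058, edgeR). In CPM, TBI replicate 3 lay far above the other two (15.4, 16.8 and 38.4), and without it the log2 fold change was 2.27. Myd88 went from 235, 184 and 159 counts to 433, 441 and 578, a 2.49-fold rise (95% interval 1.74 to 3.57, adjusted p = 0.00313). Myd88 shares sequence positions with Slc22a14 on its own strand and Acaa1a on the other, and its counts may hold reads of these genes. With an equal-variance two-sample test on FPKM, Cd14 (adjusted p = 0.135) and Myd88 (0.0639) missed the adjusted threshold and the other 8 genes passed. The study's methods give this kind of test but state no adjustment of its p-values. The unadjusted p-values of this test are not given here, so whether Cd14 and Myd88 pass the study's own rule was not tested.

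**Figure D2:**
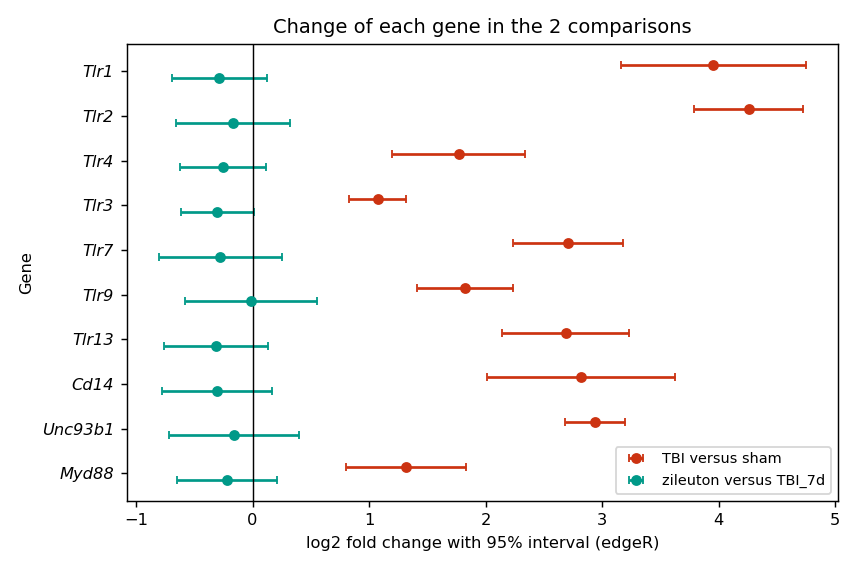
Log2 fold change of each gene with its 95% interval from edgeR, for TBI versus sham (3 against 3 mice) and for zileuton versus TBI_7d (3 against 3 mice). The intervals of TBI versus sham all lie above 0, from Tlr3 at 1.07 to Tlr2 at 4.26, and all those of zileuton versus TBI_7d include 0.

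The unequal rises changed the make-up of the receptor group. For this the FPKM of the 7 receptors, a level per length of gene, were summed in each library. The sum rose from 4.69 to 5.07 FPKM in the sham mice to 22.9 to 33.2 FPKM in the TBI mice, a ratio of means of 5.51. Tlr3 alone made up 41.6% to 43.0% of it in the sham mice and 14.9% to 18.7% in the TBI mice. The share of Tlr2 went from 6.23% to 8.10% up to 25.0% to 26.9%. The 3 surface receptors together held 16.5% ± 1.90 of the sum in sham and 38.2% ± 0.248 in TBI tissue (SD, n = 3 each).

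Not every surface receptor gained share. Tlr4 held up to 7.84% in the sham mice and 4.02% to 4.28% in the TBI mice, with the groups almost touching, and Tlr9 went from 9.28% to 10.7% to 5.41% to 7.48%, although both genes rose in level. Tlr7 went the other way, from 18.8% to 22.4% up to 23.1% to 26.9%. Tlr13 overlapped between the groups. The exact permutation test gave a two-sided p of 0.1, the smallest that 3 against 3 mice allow, for the sum, the surface share and the share of each receptor except Tlr13 (p = 0.2).

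**Figure D3:**
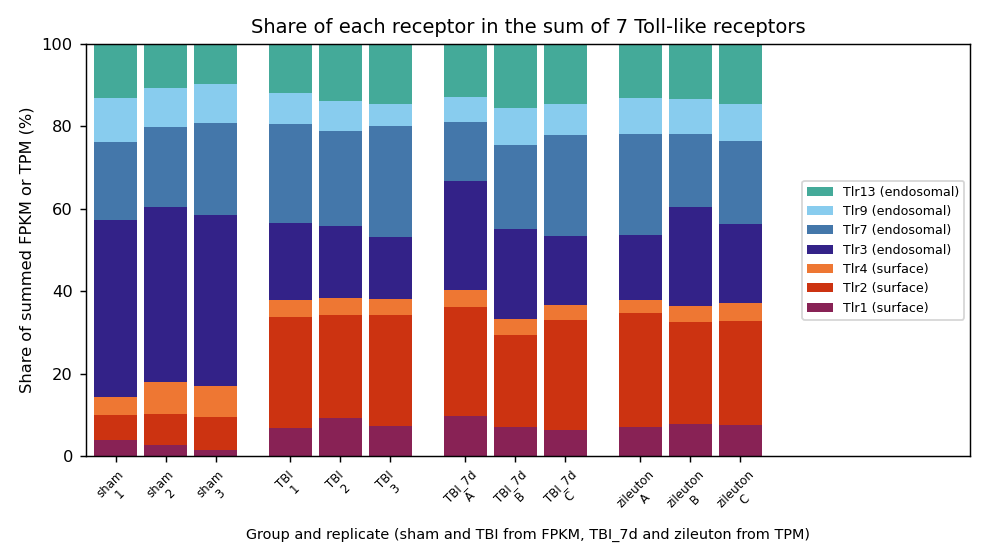
Share of each of the 7 Toll-like receptors in their summed level per length (percent), by library. Red and orange parts are surface receptors, and together they take 14.4% to 18.1% in the sham libraries, 38.0% to 38.5% in the TBI libraries and 33.4% to 40.4% in the 6 libraries of 2022.

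The order of the genes by FPKM also differed between the groups. In sham tissue Unc93b1 stood first (4.41 ± 0.239 FPKM, SD, n = 3). Tlr3 (2.08 ± 0.0989), Cd14 (1.89 ± 0.335) and Myd88 (1.59 ± 0.354) followed, each overlapping its neighbour. Below them came Tlr7 at 0.998 ± 0.109 FPKM. Tlr13 and Tlr9 did not separate, nor did Tlr2 and Tlr4, and Tlr1 was last at 0.132 ± 0.0600 FPKM.

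In TBI tissue Unc93b1 was again first (35.1 ± 4.47 FPKM, SD, n = 3) and Cd14 second, with 8.99 to 22.3 FPKM. Tlr2 (7.12 ± 1.53) and Tlr7 (6.76 ± 1.89) came next and overlapped. Tlr3, Myd88 and Tlr13 formed a chain of overlapping neighbours from 4.54 down to 3.68 FPKM, and Tlr1 (2.13 ± 0.473) overlapped Tlr9 (1.77 ± 0.0538). Tlr4, at 1.13 ± 0.191 FPKM, was now the lowest of the 10.

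Markers of myeloid cells moved with the 10 genes. All 8 pan-myeloid markers were called higher in TBI tissue, and their summed level went from 142 to 169 CPM in the sham mice to 672 to 929 CPM in the TBI mice. All 8 markers of homeostatic microglia were also called higher, from 222 to 254 up to 580 to 739 CPM. The 6 markers of monocytes and macrophages from blood, all called, stood at 3.40 to 3.85 and 27.4 to 53.7 CPM. Of these Ms4a4c had a log2 fold change of 10.2, which leaves its sham level below the filter on low counts. It thus passed only through the TBI libraries and had to be higher there. Chil3 (log2 fold change 5.97), Plac8 (5.95) and Ly6c2 (5.53) may also have needed the TBI libraries to pass. Their sham levels are not given here, and their calls carry that limit. The 7 neutrophil markers, of which Elane had at most 3 counts in every library, summed to 0.130 to 0.400 and 1.79 to 7.27 CPM. TBI replicate 3, the highest library for Cd14, was also the highest in all 4 of these sums. Of the B cell and T cell markers, 2 of each list could be tested and 1 of each was called higher (Cd79b and Cd3g). Of 5 testable dendritic cell markers, 2 were called higher (Clec9a and Ccr7) and Zbtb46 called lower. All 5 astrocyte markers were called higher and 4 of 5 neuron markers lower. Of the markers of fibroblasts and meninges 3 of 4 were called higher, and their sum went from 104 to 112 CPM up to 142 to 357 CPM. Endothelium (3 of 4) and oligodendrocytes (3 of 4) also had markers called higher, and 2 of 3 red blood cell markers were called lower. The part of these cell types in the results was not tested.

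Set against the summed pan-myeloid markers in the same library, the genes parted. Tlr2 (log2 ratio higher by 1.94 in TBI), Tlr1 (1.74) and Unc93b1 (0.63) rose more than this sum, without overlap of the groups. Single pan-myeloid markers had log2 fold changes from 1.81 (Csf1r) to 3.79 (Ptprc). Ptprc, Itgb2 (3.27) and Tyrobp (3.25) thus rose more than Unc93b1 (2.94). Relative to the summed markers Tlr3 fell by 1.23, Myd88 by 0.99 and Tlr9 by 0.47 on the log2 scale, again without overlap. Tlr7 (0.37), Tlr13 (0.36), Cd14 (0.40) and Tlr4 (-0.51) overlapped between the groups. Against the sum of the homeostatic microglia markers, which rose less, 7 genes were higher without overlap, from Tlr9 (0.43) to Tlr2 (2.85). Tlr3 was lower by that measure (-0.33), and Tlr4 and Myd88 overlapped. These ratios are descriptions and carry no test.

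**Figure D4:**
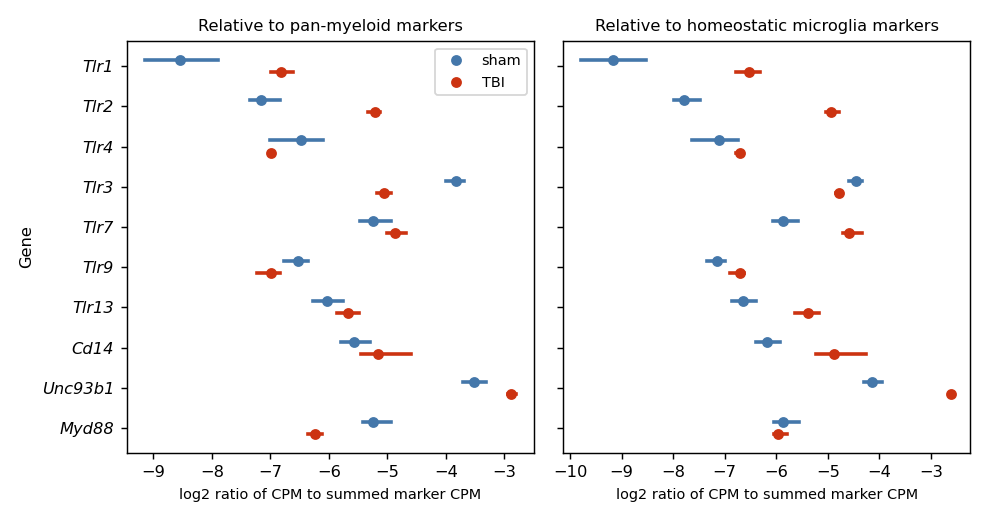
Log2 ratio of each gene's CPM to the summed CPM of 8 pan-myeloid markers (left) or 8 homeostatic microglia markers (right), in sham and TBI tissue. Points are means and bars run from the lowest to the highest of 3 libraries, and Tlr1, Tlr2 and Unc93b1 are higher in TBI without overlap in both panels.

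Of 66 other genes of the pathway, 62 could be tested, and 42 were called higher and 2 lower in TBI tissue, where 16.8% of all genes were called higher and 11.2% lower. The 42 include 3 genes (Cxcl10, Acod1 and Tnf) that passed the filter only through the TBI libraries. Tlr8, with 1 sham library over the filter's limit, and Tlr6, S100a9 and Il1b, with 2 each, also needed the TBI libraries to pass. Their higher level in TBI thus helped to keep them, and their tests below carry that limit. The median log2 fold change of the 62 was 1.15. It stayed at 1.15 when Acod1, which had no sham count, was set against a limit of 3 counts per sham library. The remaining receptors were rare. Tlr8 (log2 fold change 3.72, adjusted p = 0.000761, edgeR), Tlr6 (2.60, 0.00393) and Tlr12 (1.51, 0.0274) rose, whereas Tlr5, the flagellin receptor, overlapped between the groups (0.56, adjusted p = 0.368). Tlr11 was at 0 in every sham mouse and had 6, 10 and 4 counts in the TBI mice. Its mean TBI level was 2.16 times a limit of 3 counts per sham library, a figure that leaves out the spread between the TBI mice.

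All 5 genes of co-receptors and ligand delivery rose. Cd180, a TLR4-like protein of the surface, rose most (log2 fold change 3.68, adjusted p = 1.29e-05, edgeR), and Ly86, which encodes its partner MD-1, rose by 3.02 (adjusted p = 3.51e-05). Ly96, which encodes the MD-2 subunit that TLR4 needs, rose by 1.38 and remained rare, with 25 to 41 counts in the sham mice and 76 to 96 in the TBI mice. Lbp, the lipopolysaccharide-binding protein, rose by 1.82, and Cd36 by 1.08.

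Genes that handle the endosomal receptors differed from each other. Slc15a3, a histidine and peptide transporter of endosomes, rose by 4.02 (adjusted p = 3.56e-05, edgeR) and Slc15a4 by 0.47 (0.0166). The chaperones Hsp90b1 (0.22, adjusted p = 0.151) and Cnpy3 (0.14, 0.245), which serve receptors of both places, and Ap3b1 (0.11, 0.362) did not pass. All 4 endosomal proteases rose, from Ctsb (1.53), Lgmn (1.72) and Ctsl (1.77) to Ctss (3.09), the latter from 2766 to 3076 counts in the sham mice to 21390 to 28853 in the TBI mice.

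Among adaptors, Pik3ap1 (log2 fold change 3.06, adjusted p = 7.52e-06, edgeR), Ticam2 (2.63, 0.000536), Ticam1 (0.99, 0.00101) and Tirap (0.83, 0.0247) rose. Ticam1 encodes TRIF, the adaptor of TLR3, and Tirap bridges TLR2 and TLR4 to MyD88. Sarm1 was at -0.20 (adjusted p = 0.187). Of 14 kinases and ubiquitin ligases 3 were called higher and 1 lower, which is near the shares over all genes (16.8% and 11.2%). Ikbke rose most (2.17, adjusted p = 0.00166), Map3k7 moved least (0.02, 0.891), and Tbk1 fell by 0.31 on the log2 scale (adjusted p = 0.0135).

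All 8 transcription factors rose, from Rel (0.49, adjusted p = 0.0387, edgeR) to Irf7 (5.48, 1.75e-05). Irf7, which acts below TLR7 and TLR9 in interferon induction, had 44, 46 and 44 counts in the sham mice and 1189, 2251 and 2557 in the TBI mice. Of 6 inhibitors, 4 rose, led by Irak3 (1.70, adjusted p = 0.00371), and Tollip fell by 0.39 on the log2 scale (0.00433). Tnfaip3 was at 0.36 (adjusted p = 0.0746). Of 6 endogenous ligands 5 rose, led by S100a9 (5.88, adjusted p = 0.000168), while Hmgb1 was at -0.15 (0.351). S100a8 and S100a9 are also abundant in neutrophils, whose markers are given above.

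Of 8 induced products, Cxcl10, Acod1 and Tnf passed the filter on low counts only through the TBI libraries, so they had to be higher there, and their tests are not given. Cxcl10, a chemokine induced by interferon, went from 4 to 6 counts in the sham mice to 371 to 885 in the TBI mice, and Tnf from 0, 0 and 8 counts to 23, 32 and 24. Acod1 was at 0 in every sham mouse and had 58, 102 and 188 counts in the TBI mice. Its mean TBI level was 39.2 times the limit of 3 counts per sham library, again without the spread between the TBI mice. Il1b, which had 4 to 16 counts in the sham mice and 106 to 406 in the TBI mice, rose by 4.37 on the log2 scale (adjusted p = 0.00137, edgeR), and Ptgs2 was at -0.17 (0.516). Il6, Il12b and Ifnb1 were too low to test.

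Across the 6 libraries of 2018 the log2 levels of the 10 genes followed each other closely, with Pearson's r of 0.861 to 0.999 over the 45 pairs (median 0.977). The genes whose pattern was most like their mean profile were Hcls1, Cd300c2, Msr1, Cd68 and Lyn (r of 0.9996 to 0.9998 over 6 libraries). These libraries hold 2 groups that differ in all 10 genes, and 2604 of 19469 genes had r above 0.9.

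The comparison of zileuton-treated with injured control tissue asked whether these genes changed when 5-lipoxygenase was inhibited. Every log2 fold change lay below 0, from Tlr9 (-0.01) to Tlr13 (-0.31), with a median of -0.27 against 0.00 over all 17363 genes, of which 49.3% lay below 0. No gene of the 10 passed an adjusted p-value of 0.05 in edgeR or in DESeq2, and none passed an unadjusted p-value of 0.05 in edgeR. Over all genes tested 0 passed the adjusted threshold in edgeR, 3.9% were lower with an unadjusted p-value under 0.05, and DESeq2 called 26 genes (0.131%). The 10 genes vary together across these mice, so their common sign is not 10 separate observations.

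Tlr3 had the lowest p-value. It stood at 20.3, 23.7 and 24.7 CPM in the TBI_7d mice and at 21.5, 18.4 and 15.7 CPM in the zileuton mice (log2 fold change -0.30, 95% interval -0.62 to 0.01, unadjusted p = 0.0553, adjusted p = 0.713, edgeR). Zileuton replicate A overlapped the controls.

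Tlr4 was the sole gene whose groups did not overlap in CPM, where 7.04% of all genes were lower in that way. In the deposited TPM its groups overlapped, at 1.97 to 2.34 in the TBI_7d mice and 1.69 to 2.02 in the zileuton mice. In CPM its levels were 4.35, 4.95 and 4.64 in the TBI_7d mice and 4.34, 3.71 and 3.62 in the zileuton mice. The groups thus touched almost at the same value. The log2 fold change was -0.26 (95% interval -0.62 to 0.11, unadjusted p = 0.148, edgeR).

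Tlr2, the gene that rose most after injury, stood at 20.3, 20.9 and 28.1 CPM in the TBI_7d mice and 27.2, 19.0 and 15.5 CPM in the zileuton mice. The highest and the lowest zileuton mouse thus lay near both ends of the 6 libraries, and the 95% interval of the ratio ran from 0.634 to 1.25. Tlr1 (unadjusted p = 0.144, edgeR) lay at 6.24 to 6.58 CPM in the controls and 4.53 to 6.51 CPM with zileuton. Its deposited counts were not whole in any library of 2022.

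Tlr7, Tlr9 and Tlr13 spread more widely in the controls than Tlr3, relative to their means. Tlr7 stood at 12.9, 23.7 and 25.1 CPM in the TBI_7d mice against 18.6, 16.6 and 15.8 CPM with zileuton. Tlr13 stood at 13.5, 20.3 and 21.3 CPM against 17.7, 14.2 and 12.4 CPM. Tlr9 means were nearly equal, at 8.19 ± 2.32 and 8.13 ± 1.84 CPM (SD, n = 3 each).

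In all 3 of these genes TBI_7d replicate A was the lowest control, as it was in Tlr2, Tlr3 and Tlr4. The same mouse was lowest of the controls in Unc93b1, which stood at 70.1, 106 and 130 CPM in the TBI_7d mice and 119, 80.9 and 74.1 CPM with zileuton. Tlr1, Cd14 and Myd88 did not share this pattern. TBI_7d replicate A was the highest control for Tlr1 and Myd88 and close to the highest for Cd14. Cd14 ran from 12.6 to 15.6 CPM in the controls and from 9.41 to 15.9 CPM with zileuton, and Myd88 from 12.4 to 15.8 and from 10.0 to 15.4 CPM.

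**Figure D5:**
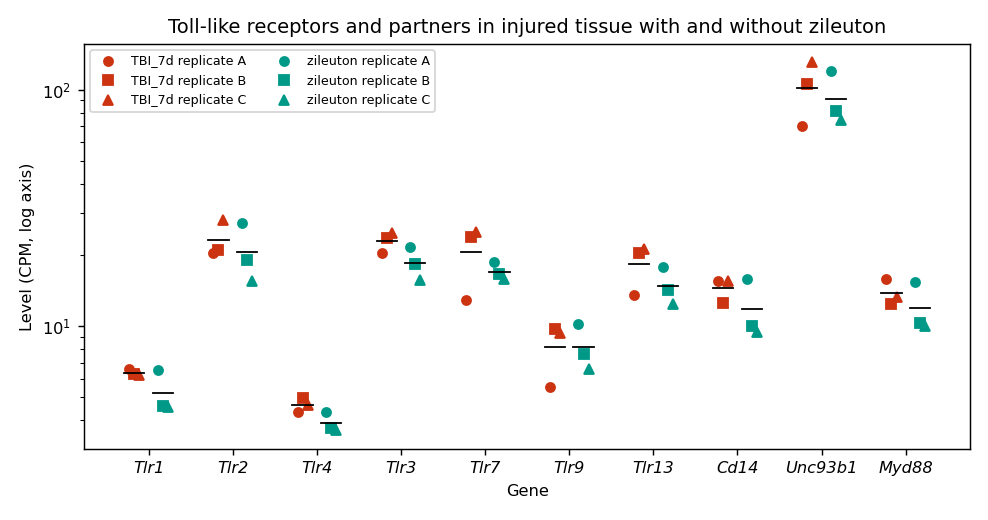
Level of each gene in CPM (log axis) in the 3 TBI_7d and 3 zileuton libraries of 2022. Symbols are libraries and black lines are group means, and the groups overlap in every gene except Tlr4.

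The markers of myeloid cells also varied between these mice. Summed pan-myeloid markers were 752, 1052 and 1202 CPM in the TBI_7d mice and 1181, 879 and 765 CPM in the zileuton mice, so TBI_7d replicate A lay lowest and zileuton replicate A second highest. Homeostatic microglia markers ranged from 631 to 928 CPM in the controls and from 665 to 863 CPM with zileuton. The 6 markers of monocytes and macrophages from blood summed to 18.9, 28.1 and 31.1 CPM in the TBI_7d mice and 30.5, 15.0 and 16.3 CPM in the zileuton mice. Their median log2 fold change was -1.12. At an unadjusted p-value of 0.05 in edgeR 2 of 6 were lower (Chil3 at -1.59 and Ly6c2 at -1.11), where 3.9% of all genes were. Plac8 (-1.20), Ms4a4c (-1.14), Ccr2 (-0.32) and F13a1 (0.01) did not reach it. Of the 8 pan-myeloid markers 1 was lower at that threshold (Aif1 at -0.59, unadjusted p = 0.015, edgeR). Neutrophil markers, of which 5 of 7 had at most 3 counts in every library, summed to 2.09 to 2.23 CPM in the controls and 0.627 to 2.47 CPM with zileuton. In all 4 sums zileuton replicate A was the highest zileuton mouse, and the groups overlapped. No marker of these 4 lists passed the adjusted threshold. Relative to pan-myeloid markers, 9 of the 10 genes had a log2 ratio lower with zileuton, by at most 0.25 (Cd14), and Tlr9 was higher by 0.10. Of these ratios only that of Tlr13 (-0.21) did not overlap between the groups. Relative to homeostatic microglia markers 9 were lower as well, and Tlr3 (-0.23) and Tlr13 (-0.22) did not overlap. These ratios carry no test. The part of these markers in the result was not tested.

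Single mice set how many of the genes reached an unadjusted p-value of 0.05. Without zileuton replicate A there were 5, all lower (Tlr1, Tlr2, Tlr3, Cd14 and Myd88), where 5.94% of all genes were lower, and the smallest adjusted p-value of the 10 was 0.32 in edgeR. Without TBI_7d replicate A there were 3 (Tlr3, Tlr7 and Tlr13), where 3.85% of all genes were lower. Without any of the other 4 mice there was no such gene.

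The receptor make-up seen in the injured mice of 2022 did not separate by treatment. The summed TPM of the 7 receptors was 55.9 ± 7.16 in the TBI_7d and 50.2 ± 12.6 in the zileuton mice (SD, n = 3 each), with a two-sided exact permutation p of 0.7. Surface receptors held 36.9% ± 3.52 and 37.1% ± 0.697 of it (exact permutation p = 0.9). For all 7 receptor shares the exact p was 0.3 or higher, and a share of Tlr9 of 6.18% to 8.83% in the controls and 8.50% to 9.09% with zileuton was the lowest of these.

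None of the 62 testable pathway genes passed the adjusted threshold with zileuton in edgeR. At an unadjusted p-value of 0.05, 5 of them passed, where 3.9% of all genes were lower and 2.93% higher. Irf7 (log2 fold change -0.87, unadjusted p = 0.017), Ctss (-0.57, 0.0253) and Hmgb1 (-0.31, 0.0193) were lower. Traf3 (0.26, 0.00537), which encodes a ubiquitin ligase of TLR signaling, and Slc15a4 (0.20, 0.0419) were higher. The log2 fold changes of the 62 genes fell on both sides of 0, with 29 above and 33 below and a median of -0.03. Among kinases and ubiquitin ligases 12 of 14 lay above 0, where 8799 of all 17363 genes did. All 5 tested induced products lay below 0, from -0.16 (Ptgs2) to -0.64 (Tnf), with unadjusted p-values of 0.342 to 0.701 in edgeR. With zileuton Tnf had 3 to 29 counts and Acod1 2 to 25, which is near the floor. Log2 fold changes also rose with gene length across genes, as given at the end, and the part of length here was not tested. Without overlap of the groups 9 of the 62 were higher, where 6.51% of all genes were, and Hmgb1 alone was lower (7.04% of all genes).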

How the data were processed

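For the 2018 libraries the authors deposited whole-number gene counts, not normalized, and FPKM. For the 2022 libraries the authors deposited estimated counts, of which 13.0% to 15.2% of values per library are not whole, and TPM. The submitters' processing notes name HISAT2, Subread, featureCounts, DESeq2 and GRCm39, with no versions or roles. The plan assumed whole counts, so the estimated counts were rounded for the tests. Of the counts from 1 to 20, 62.3% to 64.4% were even in the 2018 libraries, so a count need not be a separate molecule, and limits cover counting error only. The 2022 columns could not be tied to single labels, and their mice are called A, B and C.

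Each comparison was fitted across all genes with glmQLFit and glmQLFTest of edgeR 4.0.16 under R 4.3.3 (filterByExpr, then TMM scaling, two-sided), with Benjamini-Hochberg adjustment. The standard error is the log2 fold change divided by the square root of the F statistic. CPM were scaled by TMM. Shares of receptors used FPKM or TPM. The correlation with a gene's mean profile used log2 CPM with a prior count of 2. Scripts were tested on simulated data. Alternatives used DESeq2 1.42.0, limma 3.58.1 on log2(value + 1) and log2(value + 0.1) for genes with a mean of at least 0.5, other scalings, filters, a replicate block, halved counts and leaving out each mouse. Figures used Python 3.11.15 and matplotlib 3.10.9. Gene symbols matched 34808 of the 2018 and 52081 of the 2022 identifiers. The annotation for overlaps was GENCODE M21 on GRCm38, another build than the notes name, so gene coordinates are not given. Other pathway genes were named where they had the largest or smallest change of their list or the list had at most 5 members. With zileuton, the genes past an unadjusted p-value of 0.05 were also named, a choice made after their values were seen. So was that of Tbk1, Tollip, Il1b, Tnf, Aif1, Chil3, Ly6c2, Plac8, Ms4a4c, Ccr2, F13a1, Xist and Ddx3y. The 10 genes, the pathway and marker lists and the tests were chosen with earlier results of these data known. That labels give separate mice is taken from the study's methods.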

Additional observations from a re-analysis of the deposited data

How the results depend on the processing

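For TBI versus sham all 10 genes kept their direction in every alternative, and 10 passed the adjusted threshold in all of them except the equal-variance test on FPKM, which called 8. That test also called 2625 genes in all in place of 5479, and 22 pathway genes in place of 44. With any mouse left out, 10 of 10 genes passed and the counts over all genes ranged from 3848 to 4956 and over the pathway from 39 to 43. Of all adjusted calls 60.0% were higher, and 71.5% with limma on log2(FPKM + 1) without a filter.

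With zileuton the count of the 10 genes past an unadjusted p-value of 0.05 was 0, and it was 1 (Tlr3) with no filter beyond 1 count, and 0 to 5 with a mouse left out. Over all genes that count was 1186, and 689 (without zileuton replicate B) to 1909 (without zileuton replicate A) with a mouse left out. Of these genes 42.9% were higher, but 64.0% with limma on log2(TPM + 1), 63.7% with log2(TPM + 0.1), 63.5% without a filter and 71.7% with the equal-variance test on TPM. The log2 fold change of Tlr9 turned positive in 9 alternatives, at 0.062 with limma on log2(TPM + 0.1), 0.049 with log2(TPM + 1) with and without a filter, and 0.052 with the equal-variance test. With a mouse left out it ranged from -0.23 to 0.13, positive without replicate B or C of either group. Tlr2 ranged from -0.42 to 0.0017, positive without zileuton replicate C, and Unc93b1 from -0.40 to 0.056, positive without TBI_7d replicate C. The causes were not tested.

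Same-numbered mice did not deviate together (r of -0.094 to -0.023 in 2018, -0.282 to 0.063 in 2022), so the numbers were not taken as pairs. With a replicate block 10 of the 10 genes and 40 pathway genes passed for TBI versus sham, of 4337 genes in all. With zileuton the block gave 0 of the 10 and 729 genes in all, and Tlr9 at 0.0011. Depth limits Tlr1 most, with 12 to 30 counts in the sham mice.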

Other observations

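In the 6 libraries of 2022 the 10 genes followed each other less closely than in those of 2018, with Pearson's r over the 45 pairs from -0.029 to 0.955 (median 0.707). The genes most like their mean profile there were Ifi30, Rcsd1, Ncaph, Phyh and Mrpl4 (r of 0.990 to 0.997 over 6 libraries), and 547 of 17156 genes had r above 0.9. Ifi30 encodes a lysosomal thiol reductase of antigen-presenting cells. None of these 5 was among the 5 of the 2018 libraries. Across genes, the log2 fold change with zileuton rose with gene length (Spearman's rho 0.378 over 17363 genes, which are not independent), and for TBI versus sham rho was -0.115. Among the 9183 genes within the length range of the 10, the median log2 fold change with zileuton was 0.00012. That range is wide, from percentile 23.7 to 76.6 of length, so this median cannot show whether length bears on the 10 genes. The part of length was not tested.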
